A study of Homo sapiens with 6 samples.

Results

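Cadherins and protocadherins are calcium-dependent adhesion proteins of the cell surface. The genes described here are the protein-coding entries of the count table whose symbol is CDH followed by a number, or begins with PCDH. There were 89 such genes among 60662 entries, of which 19957 were protein-coding. They comprised 23 cadherins (5 type I classical, 13 type II classical and 5 others), 53 clustered protocadherins (15 in the alpha, 16 in the beta and 22 in the gamma cluster) and 13 non-clustered protocadherins. Their RNA was measured with stranded mRNA libraries from TC-71, an established cell line of Ewing sarcoma, a tumour of bone and soft tissue driven by a fusion of EWSR1 with an ETS gene. The study compared 3 wildtype libraries with 3 libraries of XG knockout cells, all untreated and grown in the same serum-containing medium, to see how the transcriptome differs without XG, the gene of the Xg blood group, whose product sits at the cell surface. Whether the knockout line is 1 clone or a pool is not in the labels, nor is the origin of the replicates in separate cultures. The p-values therefore rest on the spread among these 6 libraries, which may be technical.

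Classical cadherins bind a cadherin on the neighbouring cell and are tied to actin inside the cell through beta-catenin, alpha-catenin and p120-catenin. Type I members include E-cadherin of epithelia and N-cadherin of neural and mesenchymal cells, and type II members are found largely in neural tissue, mesenchyme and vessels. Clustered protocadherins are made from arrays of first exons, each with its own promoter, and in neurons different cells use different sets of them, which lets a cell tell its own branches from those of others. Non-clustered protocadherins guide cell sorting and axon growth, and some of them act on actin through the WAVE complex.

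The libraries held 22557187 to 31214099 counted fragments. XG, the targeted gene, had 45.4, 47.1 and 44.4 CPM (fragment counts scaled to a common library size after TMM, the trimmed mean of M values) in the wildtype libraries and 30.0, 30.0 and 28.9 CPM in the knockout libraries, a fall to 64.8% of wildtype (edgeR adjusted p = 1.65e-06). XG transcript was thus lower in every knockout library but still present in each. Knockout replicate 3 stood apart from the other knockout libraries: the chi-square per gene between it and replicates 1 and 2 was 4.72 and 4.46, against 2.79 between replicates 1 and 2 and 1.46 to 1.71 among wildtype libraries. All 9 markers of Ewing sarcoma reached 1 CPM, with summed levels of 3109 to 3161 CPM in wildtype and 2999.6 to 3024 CPM in knockout libraries. None of 7 epithelial markers reached 1 CPM, whereas 1 of 4 endothelial and 3 of 5 fibroblast markers did, and the endothelial marker VWF had no count.

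TC-71 expressed a narrow set of cadherins, led by CDH11, and no cadherin or protocadherin passed the test between knockout and wildtype cells. Of the 89 genes, 34 had a mean of at least 1 CPM over the 6 libraries and 18 of at least 5 CPM. Enough counts for a test were present for 51 genes: 11 cadherins, 30 clustered and 10 non-clustered protocadherins. With edgeR's quasi-likelihood test and Benjamini-Hochberg adjustment over all genes tested, 0 of 51 had an adjusted p under 0.05, against 1.36% of all 14425 genes tested. At an unadjusted p under 0.05 there were 4 (CDH23, CDH24, PCDHGC3 and PCDH18, all lower in knockout cells), against 16.8% of all genes tested in either direction and 9.81% lower. DESeq2, which was fitted to 83 of the 89 genes, also called 0, with 3 at an unadjusted p under 0.05. Its fit held 27252 genes in all, with 203 calls. Before adjustment, 1415 of them lay below 0.05.

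**Figure D1:**
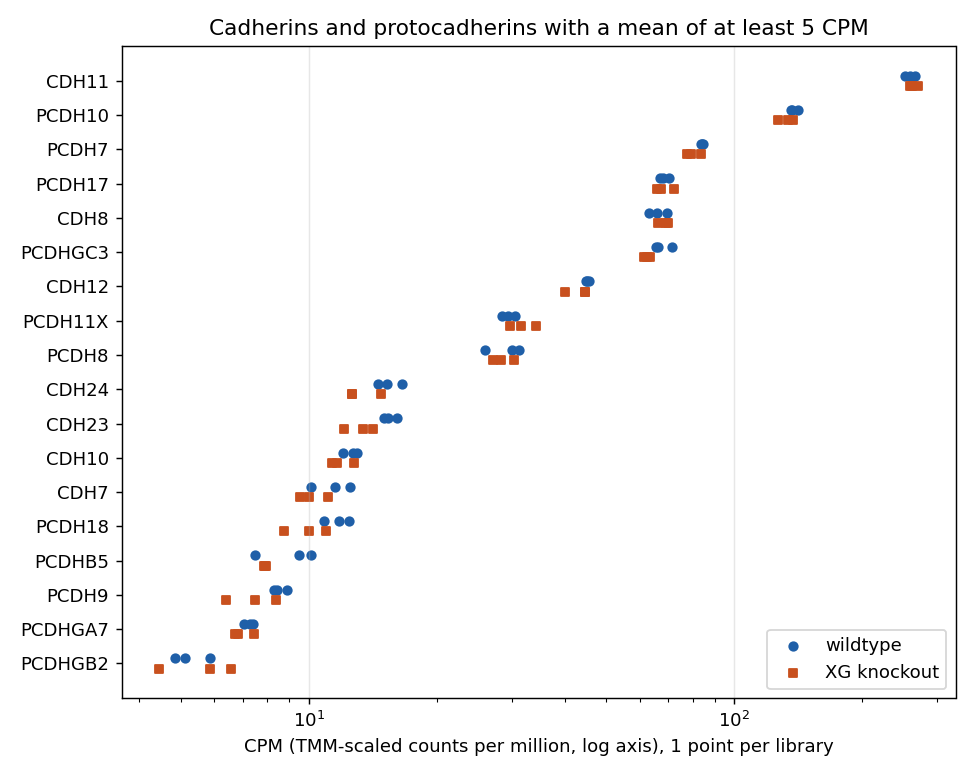
Level in CPM (log axis) of the 18 genes with a mean of at least 5 CPM, with 1 point per library, blue circles for wildtype and orange squares for XG knockout. CDH11 lies at the top at 252 to 270 CPM, and for most genes the points of both groups interleave.

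CDH11, the cadherin of osteoblasts and loose mesenchyme, was the most abundant of all 89 genes by fragment count. CDH11 (ENSG00000140937.14, chromosome 16, 64943753 to 65126112, minus strand, GRCh38) had 266, 258 and 252 CPM in wildtype and 270, 261 and 259 CPM in knockout libraries. The groups overlapped, and the log2 fold change was 0.02 (95% interval -0.04 to 0.09; edgeR adjusted p = 0.734). CDH11 supplied 61.2% to 63.4% of the fragments of all 18 classical cadherins in each of the 6 libraries. Per kilobase of exon it had a level of 19.7 CPM, against 7.80 for CDH12, 4.97 for CDH8, 3.85 for CDH24 and 3.34 for CDH10.

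CDH8 and CDH12, type II cadherins best known from the brain, were next among the classical cadherins by CPM. CDH8 (chromosome 16, 61647242 to 62037035, minus strand) had 63.1, 69.4 and 65.8 CPM in wildtype and 69.2, 69.7 and 66.4 CPM in knockout libraries. Only knockout replicate 2 of CDH8 lay above the wildtype range, by little, and the other knockout libraries lay inside it. The log2 fold change of CDH8 was 0.05 (95% interval -0.04 to 0.14). CDH12 (chromosome 5, 21750673 to 22853344, minus strand) had 45.0, 44.8 and 45.6 CPM in wildtype and 44.5, 40.0 and 44.5 CPM in knockout libraries. All 3 knockout libraries of CDH12 were below the wildtype libraries, but only replicate 2 was well below, and the test was not passed (log2 fold change -0.07, SE 0.0493, edgeR adjusted p = 0.501).

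CDH24, a type II cadherin that binds catenins, had 14.5, 15.3 and 16.6 CPM in wildtype and 12.7, 12.6 and 14.8 CPM in knockout libraries. Knockout replicate 3 lay within the wildtype range of CDH24 and the other two below it. Its log2 fold change was -0.21 (95% interval -0.37 to -0.04; edgeR adjusted p = 0.19). CDH24 is GC-rich, with 64.2% in its longest transcript against a median of 48.0% over tested genes. With a correction for GC content, chosen after seeing the data, the CDH24 fold change became -0.10 (edgeR adjusted p = 0.57). CDH10, CDH7 and CDH20, further type II cadherins of the nervous system, had wildtype means of 12.6 ± 0.49, 11.4 ± 1.18 and 2.99 ± 0.341 CPM (SD, n = 3) and knockout means of 11.9 ± 0.763, 10.2 ± 0.804 and 2.44 ± 0.0584 CPM. Of these only CDH20 had groups that did not overlap, and its edgeR adjusted p was 0.342. CDH6, a cadherin of kidney and neural crest, was near the limit of testing with a wildtype mean of 0.411 and a knockout mean of 0.465 CPM.

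The cadherins by which epithelial and mesenchymal states are usually told apart were nearly absent. CDH1, which encodes E-cadherin, had 5 fragments in all 6 libraries together, and CDH2, which encodes N-cadherin, had 15. These corresponded to means of 0.0305 and 0.0906 CPM. CDH5, the cadherin of endothelium, CDH15, that of muscle, and CDH13, a cadherin anchored by a lipid instead of a membrane-spanning segment, had 11, 11 and 1 fragments. These genes were named after their values were seen. In bulk RNA, a few cells with the transcript cannot be told from little transcript in each cell. Among type I members, CDH3, which encodes P-cadherin of basal epithelium, was the exception: it had 3.69, 4.57 and 4.40 CPM in wildtype and 3.25, 3.92 and 3.90 CPM in knockout libraries, in overlapping groups (log2 fold change -0.18, SE 0.133). CDH4, R-cadherin of retina and brain, had a mean of 0.449 CPM. No fragment was counted for CDH9, CDH16, CDH17, CDH19, CDH22 or PCDHB1, which at 161687007 fragments in all allows up to 0.0186 CPM (3 counts over the 6 libraries, counting error only).

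CDH23, which with PCDH15 forms the tip links of sensory hair cells, had the smallest p of all 51 genes. CDH23 (chromosome 10, 71396920 to 71815947, plus strand) had 15.3, 16.1 and 15.04 CPM in wildtype and 14.1, 12.1 and 13.4 CPM in knockout libraries. Every knockout value was under every wildtype value, and the mean was 85.0% of wildtype. The log2 fold change of CDH23 was -0.23 (SE 0.0739, 95% interval -0.39 to -0.08), which did not pass the adjusted threshold (edgeR adjusted p = 0.117). With the GC correction (GC content 59.2%) its fold change was -0.17 (edgeR adjusted p = 0.252). PCDH15, its partner in the hair cell, had a wildtype mean of 0.439 ± 0.0828 and a knockout mean of 0.384 ± 0.142 CPM (SD, n = 3). CDH23 thus had many times more fragments than PCDH15, with totals of 2304 and 65. On the scale of CPM per kilobase of exon the levels were 0.772 and 0.0267.

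Non-clustered protocadherins took nearly as many fragments as the classical cadherins. Summed over the 13 genes, wildtype libraries gave 376 ± 2.53 and knockout libraries 365 ± 4.96 CPM (SD, n = 3), against 418 ± 5.41 and 417 ± 6.76 CPM for the 18 classical cadherins. These sums mix genes of different length and were not tested.

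PCDH10, a delta-2 protocadherin that recruits the WAVE complex, led the non-clustered genes and supplied 35.1% to 37.6% of their fragments in each library. PCDH10 (ENSG00000138650.9, chromosome 4, 133149294 to 133208606, plus strand) had 136, 137 and 141 CPM in wildtype and 137, 126 and 134 CPM in knockout libraries. The highest knockout library reached the wildtype range, and the log2 fold change was -0.05 (95% interval -0.13 to 0.02). PCDH17, another delta-2 member, had 66.8, 70.4 and 68.1 CPM in wildtype and 72.2, 67.1 and 65.8 CPM in knockout libraries. Its group means were both 68.4 CPM, the knockout libraries enclosed the wildtype ones, and the 95% interval of the log2 fold change was -0.09 to 0.09.

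PCDH7, a delta-1 protocadherin that binds the phosphatase PP1-alpha and the protein SET, was the second most abundant non-clustered gene by CPM. PCDH7 had 84.1, 83.6 and 84.4 CPM in wildtype and 78.9, 77.5 and 83.3 CPM in knockout libraries. The wildtype libraries agreed closely, at 84.0 ± 0.421 CPM (SD, n = 3), and the knockout libraries were lower, replicate 3 only slightly. PCDH7 did not pass the test (log2 fold change -0.07, SE 0.0376, edgeR adjusted p = 0.346). Per kilobase of exon, the levels were 13.3 CPM for PCDH10, 8.15 for PCDH17, 6.69 for PCDH7, 5.60 for PCDH8, 2.64 for PCDH11X and 1.62 for PCDH18.

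PCDH18, a delta-2 member of developing brain and mesenchyme, had 12.4, 11.8 and 10.9 CPM in wildtype and 10.0, 11.0049 and 8.73 CPM in knockout libraries. The groups overlapped at 1 library of each. PCDH18 did not pass the test, at -0.24 on the log2 scale (SE 0.0909, edgeR adjusted p = 0.188). The GC correction moved it to -0.28 (edgeR adjusted p = 0.0718), and leaving out knockout replicate 3 to -0.15 (edgeR adjusted p = 0.296). PCDH8, a delta-2 protocadherin of somites and synapses, had a wildtype mean of 29.1 ± 2.80 and a knockout mean of 28.6 ± 1.68 CPM (SD, n = 3). PCDH9, a delta-1 member, had 8.53 ± 0.324 and 7.42 ± 0.998 CPM, and PCDH19, the delta-2 member linked to an epilepsy, had 3.50 ± 0.513 and 3.31 ± 0.222 CPM. Neither passed the test, with edgeR adjusted p = 0.363 and 0.801.

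PCDH11X was the 1 tested non-clustered gene with a positive fold change, against 9 with a negative one. PCDH11X, a delta-1 protocadherin on the X chromosome, had 29.4, 30.6 and 28.5 CPM in wildtype and 31.6, 34.2 and 29.7 CPM in knockout libraries (log2 fold change 0.11, SE 0.0583, edgeR adjusted p = 0.349). It has a near-identical copy, PCDH11Y, which was also tested and not called, and fragments that fit both were not counted, so its level is uncertain. PCDH1, PCDH12 and PCDH20 had too few counts for a test, with 14, 52 and 15 fragments in all. For PCDH20 only 201 of its 4778 exon bases were free of other annotated genes on the same strand, so its count says little of its level.

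Clustered protocadherins were low except for 1 gene, PCDHGC3. The alpha, beta and gamma genes lie next to each other on the plus strand of chromosome 5. In the annotation used, all 15 alpha genes share exon bases with each other, a median of 2869 per gene. All 22 gamma genes share a median of 2181. These are mostly the constant exons joined to each first exon. Fragments on exons of several genes were not counted for any of them, so counts of alpha and gamma genes come from their unshared exon bases. Levels are given per kilobase of exon not shared with another gene. These bases number 2572 to 10574 in alpha and 2459 to 5729 in gamma genes. They can hold more than the first exon, which limits comparison of levels between genes. Beta genes have no constant exons and shared none with each other.

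PCDHGC3, a C-type gamma isoform that is also found widely outside the nervous system, held 73.8% to 77.0% of gamma cluster fragments and 47.7% to 50.9% of those of all 53 clustered genes in each library. PCDHGC3 (ENSG00000240184.7, chromosome 5, 141475947 to 141512977) had 66.1, 71.2 and 65.4 CPM in wildtype and 62.3, 61.3 and 63.2 CPM in knockout libraries. The groups did not overlap, and the knockout mean was 92.2% of wildtype. Its log2 fold change of -0.12 (SE 0.042, 95% interval -0.21 to -0.03) did not pass the adjusted threshold (edgeR adjusted p = 0.164), and with the GC correction it was -0.07 (edgeR adjusted p = 0.394; GC content 56.5%). Per kilobase of unshared exon PCDHGC3 had 19.97 CPM and CDH11 had 20.04 CPM. The next clustered genes were PCDHB5 at 2.48, PCDHGA7 at 2.18, PCDHGB2 at 2.11, PCDHA6 at 1.49 and PCDHB2 at 1.05. The other C-type gamma isoforms, PCDHGC4 and PCDHGC5, were at 0.324 and 0.246.

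**Figure D2:**
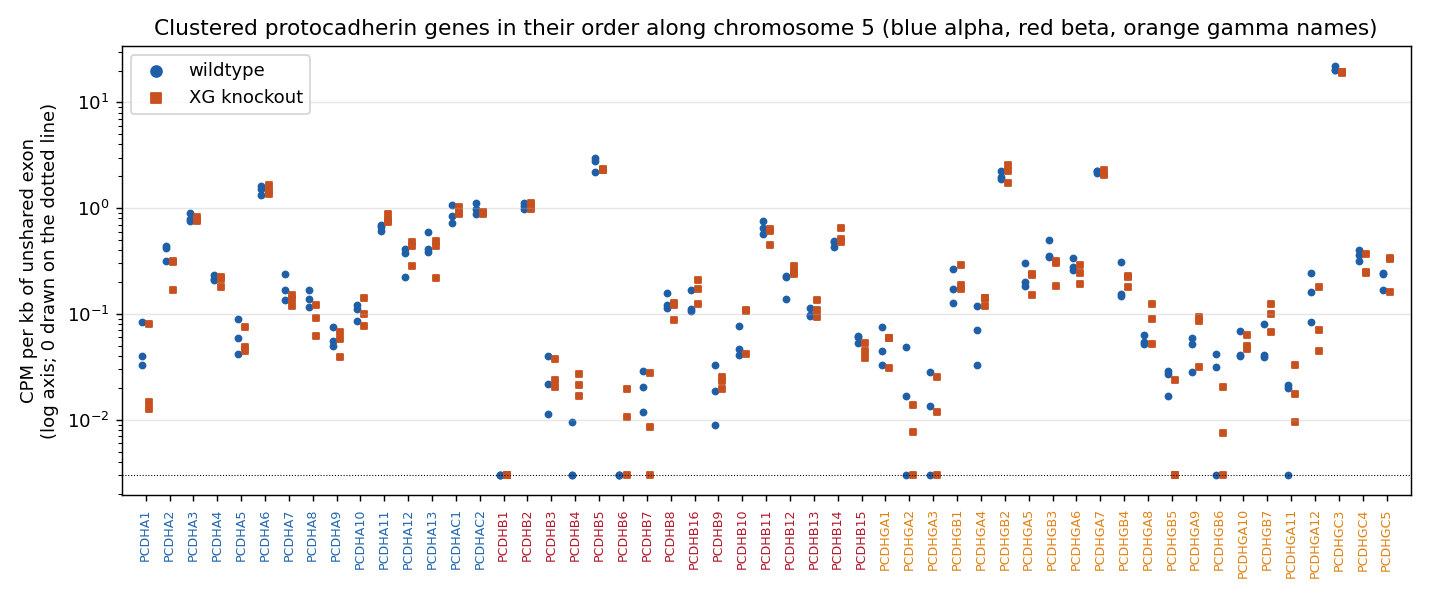
Level of the 53 clustered protocadherin genes in their order along chromosome 5, as CPM per kilobase of exon not shared with another gene (log axis, values of 0 on the dotted line), with 1 point per library. PCDHGC3 stands at 19.97, the next genes at 2.48 or less, and neighbouring genes differ widely. The points of both groups overlap for most genes, and genes with few fragments scatter widely.

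Within each cluster neighbouring genes differed widely. PCDHB5 had 9.48, 7.48 and 10.1 CPM in wildtype and 7.83, 7.94 and 7.91 CPM in knockout libraries, with the knockout values inside the wildtype range (log2 fold change -0.19, SE 0.103). Beside it, PCDHB4 had 8 fragments in all and PCDHB6 had 3. PCDHGA7 had 7.38, 7.06 and 7.30 CPM in wildtype and 6.83, 7.43 and 6.70 CPM in knockout libraries, in overlapping groups. PCDHGB2 had 4.85, 5.87 and 5.12 CPM in wildtype and 4.46, 6.58 and 5.87 CPM in knockout libraries, where knockout replicates 1 and 2 were the lowest and the highest of all. In the alpha cluster no gene dominated: PCDHA6 held 18.4% to 21.1% of its fragments, with a wildtype mean of 4.86 ± 0.457 and a knockout mean of 4.87 ± 0.508 CPM (SD, n = 3), and PCDHAC1, PCDHA3 and PCDHAC2 followed at means of 3.70, 3.22 and 3.12 CPM. The other clustered genes with a mean of at least 1 CPM were PCDHB11 at 2.56, PCDHB14 at 2.36, PCDHA4 at 2.25, PCDHGA6 at 1.53, PCDHA10 at 1.097 and PCDHA13 at 1.09 CPM. The groups overlapped in each of these 6, with log2 fold changes from -0.25 for PCDHA13 to 0.20 for PCDHB14 and edgeR adjusted p of 0.547 or more.

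Each alternative first exon of these clusters has its own promoter, and most of these promoters are known to carry a conserved element with the core letters CGCT. RefSeq promoter sequences (GRCh38.p14, 250 bases before to 50 after the start) matched 70 of the 89 genes, and 47 of the 53 clustered ones. CGCT on the gene's strand, 30 to 90 bases before the start, was found in 42 of these 47 (89.4%): 12 of 13 alpha, 12 of 14 beta and 18 of 20 gamma promoters. Its reverse complement, which does not count toward these numbers, was there in 9. The same window held CGCT on the gene's strand in 19.1% of all 35116 RefSeq promoters, in 3 of 11 non-clustered protocadherin promoters and in 5 of 12 cadherin promoters. These windows, on the plus strand of GRCh38.p14 with a CGCT picked by its position in capitals, set a higher gene beside a low one in each cluster.
PCDHA6 (chr5:140827893-140827936): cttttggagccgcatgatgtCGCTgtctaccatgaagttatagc
PCDHA11 (chr5:140868879-140868922): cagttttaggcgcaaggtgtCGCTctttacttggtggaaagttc
PCDHA1 (chr5:140786082-140786125): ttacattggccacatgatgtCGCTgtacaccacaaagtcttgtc
PCDHB2 (chr5:141094540-141094583): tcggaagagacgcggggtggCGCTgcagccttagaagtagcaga
PCDHB4 (chr5:141121719-141121762): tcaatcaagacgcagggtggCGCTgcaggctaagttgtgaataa
PCDHB1 (chr5:141051270-141051313): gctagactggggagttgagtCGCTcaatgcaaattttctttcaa
PCDHGC3 (chr5:141475895-141475938): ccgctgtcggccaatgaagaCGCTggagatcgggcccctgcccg
PCDHGA7 (chr5:141382645-141382688): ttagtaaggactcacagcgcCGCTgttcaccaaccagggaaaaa
PCDHGA3 (chr5:141343763-141343806): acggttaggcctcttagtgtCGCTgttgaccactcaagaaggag

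The windows shown were picked among promoters that hold CGCT in the window, and its presence was not tested against the level. The PCDHGC3 window holds CGCT at 70 and at 51 bases before the start, and only the copy at 51 is in capitals. Whether a marked CGCT is the core of the conserved element was not tested. Per kilobase of unshared exon the alpha genes shown had 1.49 (PCDHA6), 0.723 (PCDHA11) and 0.0443 CPM (PCDHA1), the beta genes 1.05 (PCDHB2), 0.0124 (PCDHB4) and 0 (PCDHB1), and the gamma genes 19.97 (PCDHGC3), 2.18 (PCDHGA7) and 0.0132 (PCDHGA3). PCDHB5 and PCDHGB2, among the highest clustered genes, had no CGCT in the window: the 1 copy in each promoter began 11 and 199 bases before the start. The window depends on the annotated start, so this does not show that the element is absent from these promoters. The longer runs below were sought in the whole promoter. The letters around CGCT differed by cluster, in runs chosen after the windows were seen and sought on both strands. GATGTCGCT was held by 9 of 13 alpha promoters and 0.105% of all promoters, GGTGGCGCT by 13 of 14 beta promoters and 0.501%, and CGCTGTT by 13 of 20 gamma promoters and 2.26%. The first of these runs was in 0 beta and 0 gamma promoters, the second in 0 alpha and 0 gamma promoters, and the third in 0 alpha promoters and 1 of 14 beta promoters. Among the windows shown, those of PCDHA11, PCDHB1 and PCDHGC3 do not hold the run of their cluster. These matches describe letters in a window or promoter and are not evidence of binding.

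Knockout sums of the clusters were 97.8% of wildtype for alpha, 97.3% for beta and 93.6% for gamma, with no test. The alpha cluster summed to 25.3, 27.4 and 23.7 CPM in wildtype and 23.8, 25.1 and 25.7 CPM in knockout libraries. The beta cluster summed to 22.1, 19.8 and 21.4 CPM in wildtype and 21.1, 20.4 and 20.2 CPM in knockout libraries. Both sets of values overlapped between the groups. The gamma cluster summed to 85.9, 92.9 and 85.7 CPM in wildtype and 81.0, 83.04 and 83.5 CPM in knockout libraries, so that all knockout sums lay below the wildtype ones. Most of these fragments are those of PCDHGC3.

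Across the 51 tested genes, 32 fold changes were negative and 19 positive, 62.7% negative against 49.1% of all genes tested. Their median log2 fold change was -0.07, against 0.0019 over all genes tested. By family, 7 of 11 cadherins, 7 of 12 alpha, 2 of 7 beta, 7 of 11 gamma and 9 of 10 non-clustered genes were negative, none of them past the test. The libraries of the groups did not overlap in 9 of 51 genes, against 20.5% of all tested genes. Of these 9, CDH12, CDH20, CDH23, PCDH7, PCDHA2, PCDHGB3 and PCDHGC3 were lower in knockout cells (7, against 9.8% of all tested genes) and PCDHA11 and PCDHB12 higher (2, against 10.7%). PCDHA11 had 2.21, 2.03 and 2.31 CPM in wildtype and 2.49, 2.59 and 2.93 CPM in knockout libraries (log2 fold change 0.30, SE 0.156, edgeR adjusted p = 0.355). PCDHA2, PCDHGB3 and PCDHB12, each with a mean under 1 CPM over the 6 libraries and named after their values were seen, had log2 fold changes of -0.53, -0.56 and 0.40, with 95% intervals that include 0.

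**Figure D3:**
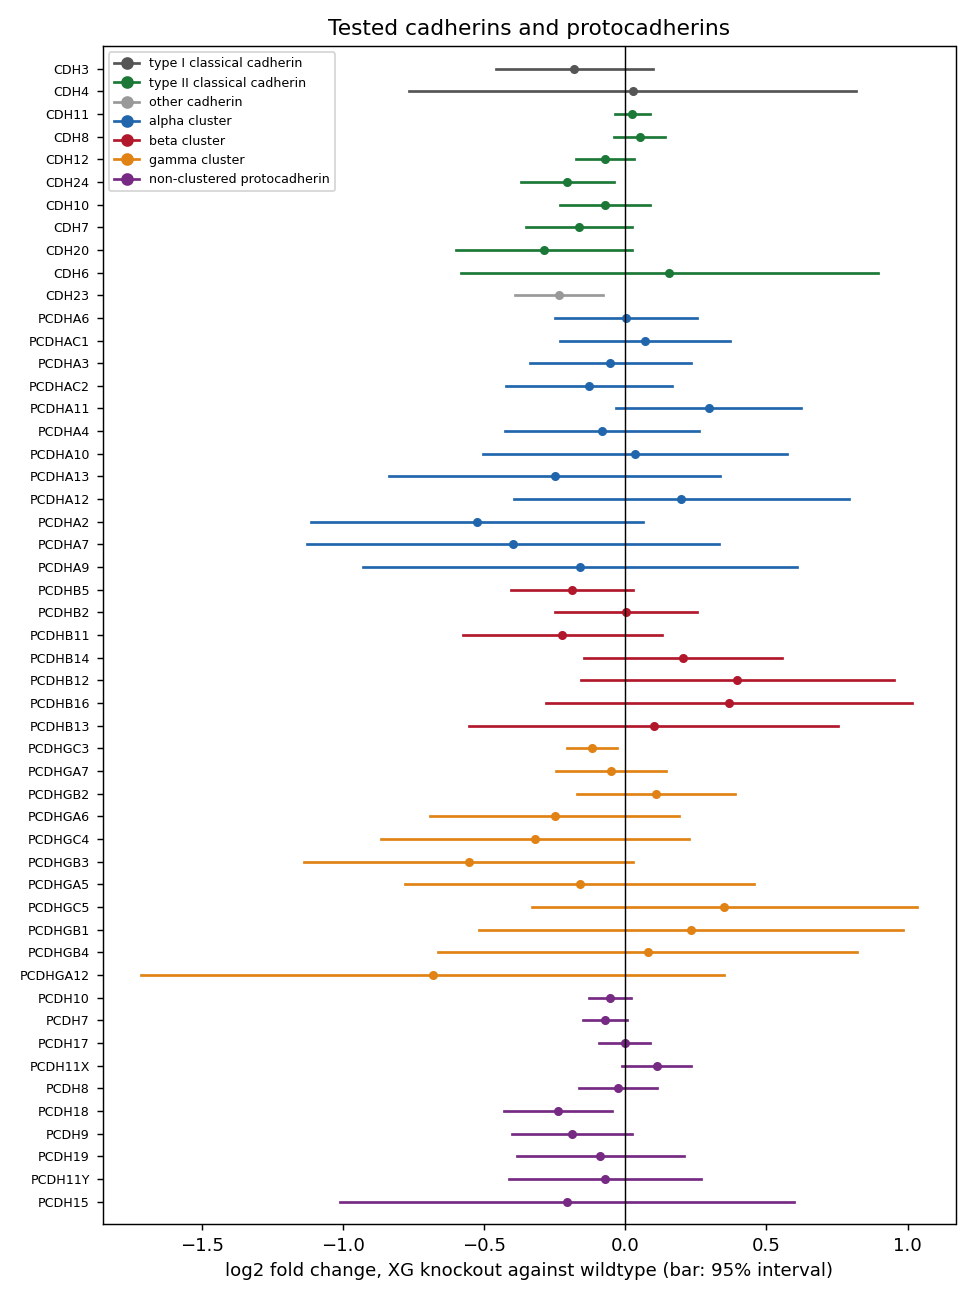
Log2 fold change of XG knockout against wildtype for the 51 tested genes, with bars for the 95% interval and colours for the families, ordered by level within a family. Intervals are narrow for CDH11, CDH8 and PCDH10 and wide for low clustered genes such as PCDHGA12, and no gene passed the adjusted threshold.

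How small a change could have been seen depended on the level. The SE of the log2 fold change was 0.0296 for CDH11 and had a median of 0.149 over the 51 genes and of 0.258 over the 30 clustered ones. For 30 of the 51 genes the 95% interval lay within a 1.5-fold change in either direction. For the remaining genes, mostly clustered ones, the interval reached past it. In the authors' deposited table, 9 of the 89 genes had an adjusted p, and 0 of these were under 0.05. Over all 7482 genes with an adjusted p there, 199 were under 0.05, so 0 of 9 says little about these genes. In that table PCDHGC3 had a log2 fold change of -0.12 with an adjusted p of 0.246.

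Any of these genes passed only when knockout replicate 3 was left out, a step that also raised the calls over all genes. Without it 4 of 51 were called by edgeR, against 12.7% of all genes tested: CDH24 (log2 fold change -0.29, adjusted p = 0.0122), PCDHGC3 (-0.13, adjusted p = 0.0333), CDH23 (-0.25, adjusted p = 0.0338) and PCDH11X (0.16, adjusted p = 0.0434). Without any of the other 5 libraries, 0 were called. The GC correction gave 0 edgeR calls among the 51 genes, against 2.36% of all genes tested. With it, 7 of the 51 had an unadjusted edgeR p below 0.05, against 2104 of all 14359 genes.

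Among partner genes of cadherins, in 5 lists with 90 genes, 72 were tested and 4 (5.56%) were called, all lower: CELSR2, DNMT1, EHMT2 and CYFIP2. Of all genes tested 1.36% were called, 0.915% lower. The lists were chosen with earlier results of these data known, so the difference in shares is no test of them. Each of the 4 lost its call when any 1 library other than knockout replicate 3 was left out, and without that replicate 10 of the listed genes (13.9%) were called, against 12.7% of all genes. With the GC correction 5 (6.94%) were called, against 2.36% of all genes: DNMT1 and CYFIP2 lower, and JUP, DNMT3B and CYFIP1 higher. The lists were catenins and junction partners (0 of 15 called), cadherin processing (0 of 8), other members of the cadherin superfamily (1 of 14), regulators of the protocadherin clusters (2 of 17) and intracellular partners of protocadherins (1 of 18). Median log2 fold changes of the lists lay between -0.03 and 0.01.

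**Figure D4:**
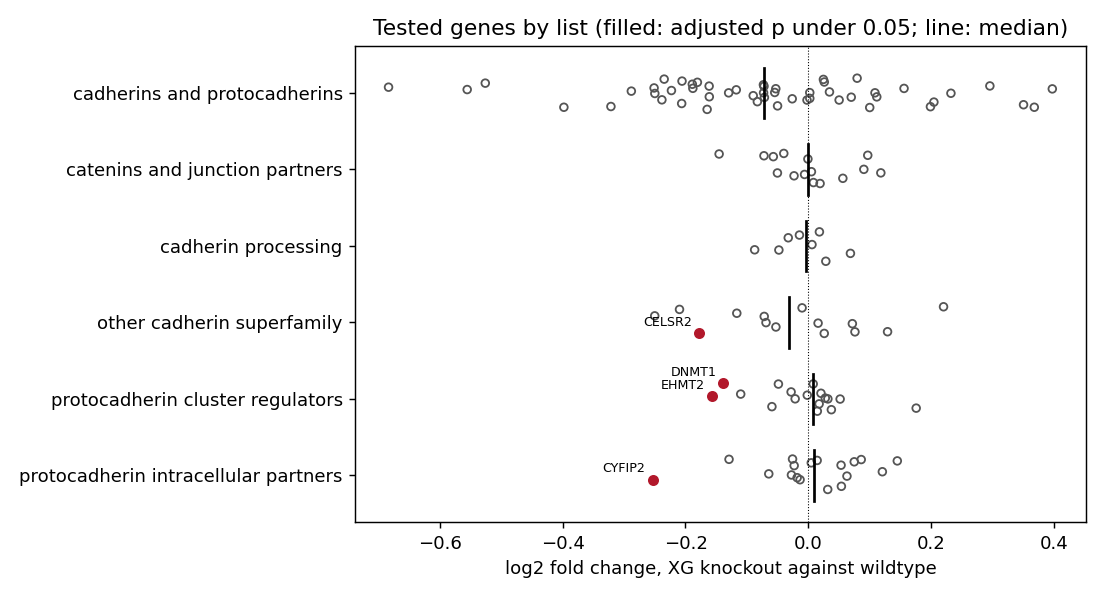
Log2 fold changes of tested genes in the cadherin and protocadherin families and in 5 lists of partner genes, with 1 point per gene, filled where the adjusted p was under 0.05, and a line at the median. The 4 called genes CELSR2, DNMT1, EHMT2 and CYFIP2 lie below 0.

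The catenins that CDH11 and its relatives need were present at levels that did not pass the test. CTNNB1, which encodes beta-catenin, had a wildtype mean of 289 ± 0.982 and a knockout mean of 281 ± 7.28 CPM (SD, n = 3), and CTNNA1, which encodes alpha-catenin, had 212 ± 2.92 and 211 ± 3.56 CPM. CTNND1, which encodes p120-catenin, had a mean of 8.69 CPM, but 4120 of its 9787 exon bases were free of other annotated genes, so its level is understated. In the list of junction partners the smallest p belonged to PKP1, plakophilin 1 of the desmosome, at 1231, 1243 and 1241 CPM in wildtype and 1172, 1160 and 1203 CPM in knockout libraries (edgeR adjusted p = 0.136). The level of PKP1 contrasted with that of the desmosomal cadherins it is linked to in epithelia. DSG1, DSG3, DSG4, DSC1, DSC2 and DSC3 had 0 fragments and DSG2 had 1. PKP2, a related plakophilin, was next by p, at 17.96 ± 1.30 and 19.5 ± 0.464 CPM. JUP, plakoglobin, stood at 48.7 ± 0.773 in wildtype and 51.9 ± 3.95 CPM in knockout cells without a call (log2 fold change 0.09, edgeR adjusted p = 0.402), and was called with the GC correction (0.18, edgeR adjusted p = 0.0147). Among processing genes, NCSTN and APH1A, subunits of the gamma-secretase that cuts cadherins in the membrane, had the smallest p values and log2 fold changes of 0.07 and -0.05.

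CELSR2, a seven-pass cadherin of planar cell polarity, had 79.4, 78.8 and 84.6 CPM in wildtype and 70.0, 71.8 and 72.5 CPM in knockout libraries. The groups did not overlap, and CELSR2 fell to 88.4% of wildtype (edgeR adjusted p = 0.0302). Its call was lost with the GC correction (log2 fold change -0.10, edgeR adjusted p = 0.163). Other superfamily members stood without a call at means of 324 CPM for CLSTN2, a calsyntenin, and 93.7 CPM for FAT4 and 57.3 CPM for FAT1, giant cadherins.

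DNMT1, the maintenance DNA methyltransferase, fell: its wildtype mean was 433 ± 8.09 and its knockout mean 393 ± 13.5 CPM (SD, n = 3), with a log2 fold change of -0.14 (edgeR adjusted p = 0.0262). EHMT2, which methylates histone H3 in silent chromatin, fell likewise, with means of 162 ± 2.65 and 146 ± 7.30 CPM and a log2 fold change of -0.16 (edgeR adjusted p = 0.036). Its log2 fold change was -0.07 with the GC correction, without a call (edgeR adjusted p = 0.161), whereas DNMT1 was called there (-0.10, adjusted p = 0.0105). DNMT3B, a de novo DNA methyltransferase, stood at 20.8 ± 1.22 and 23.5 ± 1.09 CPM without a call (log2 fold change 0.18, edgeR adjusted p = 0.16), and was called with the GC correction (0.20, edgeR adjusted p = 0.0478). JUP and DNMT3B were named after their values were seen. CYFIP2, a WAVE complex subunit, had 20.2, 21.0 and 20.2 CPM in wildtype and 17.4, 17.0 and 17.1 CPM in knockout libraries. CYFIP2 fell to 83.9% of wildtype (edgeR adjusted p = 0.0405), and DESeq2 did not call it (adjusted p = 0.0981). Its paralog CYFIP1, named after its values were seen, stood at 113 ± 4.42 and 123 ± 1.43 CPM with a log2 fold change of 0.12 (edgeR adjusted p = 0.093), and was called with the GC correction (0.11, adjusted p = 0.0347).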

How the data were processed

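RNA of TC-71 cells was sequenced in 6 libraries, 3 wildtype and 3 XG knockout, grouped and numbered by title. The submitters' processing notes name bcl2fastq, STAR 2.7.6a and the build GRCh38. The authors deposited raw counts of fragments for each gene, from featureCounts (Subread 2.0.1) and GENCODE 33 exons, paired-end and reverse-stranded, with no option for multi-mapping or multiple overlap, per the file headers. The authors' deposited log2 fold changes and p-values come from DESeq2 1.38.3 in R 4.2.2, per the submitters' processing notes. Their direction is not stated. It was read from XG and from fold changes of the same sign as edgeR's in 99.2% of tested genes.

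Genes were kept by filterByExpr (minimum count 10, minimum total 15), scaled by TMM and tested with edgeR 4.0.16 in R 4.3.3 (glmQLFit, glmQLFTest, two-sided, no covariates), with Benjamini-Hochberg adjustment over 14425 genes at 0.05. SEs and 95% intervals come from the fold change and F statistic. CPM uses TMM-adjusted library sizes, and exon length is that of the count table. The GC correction removed a lowess trend (span 0.5) on GC content of the longest GENCODE 29 transcript, per library, and 99.5% of tested genes had a value. The test script was tested on simulated data.

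Members and lists were chosen with earlier results of these data known. Named were XG, members past the threshold or with a mean of at least 1 CPM (PCDH11Y without its level), and in each list the called genes or, with none, the 2 of smallest p. Others are marked as named after their values were seen, or are silent or low members and list genes named for their level. Alternatives were other scalings, DESeq2 1.42.0, other count filters, a block for the replicate number, each library left out in turn and a threshold of 0.01. The GC correction was chosen after seeing the data.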

Additional observations from a re-analysis of the deposited data

How the results depend on the processing

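No cadherin or protocadherin was called with DESeq2, scaling by relative log expression or the upper quartile, no filter on low counts, at least 100 counts in 3 libraries, a threshold of 0.01, the replicate block or the GC correction. Leaving out each library gave 0 to 4 calls among them, the 4 without knockout replicate 3; the cause was not tested. Over all genes, 196 calls became 33 at a threshold of 0.01, 647 with no filter, 339 with the GC correction and 18 to 1851 with 1 library left out. Listed partner genes went from 4 calls to 0 at a threshold of 0.01, 5 with the GC correction and 0 to 10 with 1 library left out.

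The replicate block gave 37 calls over all genes and 0 among the partner genes. Same-numbered libraries did not deviate together (correlations of -0.0459, -0.0239 and -0.0512), and 0 of 3 wildtype libraries correlated best with its own number. No pairing by number was seen, but with so few libraries a weak one could be missed.

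For 33 of the 34 members with at least 1 CPM (all but PCDH11Y, which is Y-linked and not followed here), 393 of 419 alternative fold changes kept their direction and side of the threshold, and 22 changed sign, none of them called. Those of PCDHA6 were -0.0016 with the replicate block and -0.0034 with the GC correction. The GC correction also gave -0.0026 for PCDHB2, 0.026 for PCDH8 and -0.0040 for CDH11, and upper quartile scaling 0.0077 for PCDH17. With 1 library left out, log2 fold changes ranged from -0.10 to 0.023 for PCDHA3, -0.080 to 0.061 for PCDHA6, -0.24 to 0.20 for PCDHA10, -0.041 to 0.23 for PCDHAC1, -0.045 to 0.056 for PCDHB2, -0.025 to 0.24 for PCDHGB2, -0.10 to 0.029 for PCDH8, -0.041 to 0.023 for PCDH17 and -0.19 to 0.0083 for PCDH19. Summed cluster levels moved by less than the spread between libraries under relative log expression or total-count scaling.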
